A study of Mus musculus with 4 samples.

Results

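Acod1 (gene 16365, formerly Irg1) encodes the mitochondrial enzyme that makes itaconate, and its transcript was followed here in every library of a study of neutrophils given a JAK inhibitor. It is 1 gene of the 16566 in the deposited tables, found by its symbol, and it was chosen by its count in vehicle replicate 2, about 10-fold lower than in vehicle replicate 1. Its own levels are therefore given as a description, with no test. The study measured RNA in neutrophils of C57BL/6 mouse bone marrow, stated to be more than 95% pure and kept in culture medium containing 20% fetal bovine serum for 1 h. The vehicle group received 80% glucose with 20% PEG300 for 1 h. The ruxolitinib group received that drug, which blocks JAK1 and JAK2, the kinases that relay signals from cytokine receptors, for 1 h. The same 80% glucose with 20% PEG300 is listed for the ruxolitinib libraries. The dose of ruxolitinib is uncertain, since the labels state both 0.1 µM and 1 µM. Each group held 2 libraries, numbered 1 and 2 from the titles, and nothing says whether they came from separate animals or cultures, so the p-values here cover library-to-library spread alone, and that spread may be technical. No genetic change is named in the labels, and neither is an untreated group kept without vehicle.

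Itaconate is made by removing a carboxyl group from cis-aconitate, an intermediate of the tricarboxylic acid (TCA) cycle. In mouse macrophages Acod1 is among the most strongly induced genes after bacterial lipopolysaccharide, through Toll-like receptors, NF-κB and interferon signalling, and neutrophils also express it. Itaconate inhibits succinate dehydrogenase and modifies cysteines of proteins such as KEAP1, which frees the antioxidant factor NRF2.

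The libraries held between 14235511 and 15419579 estimated counts. Of the 20 neutrophil markers, all were measured, and their summed level was 252000 and 275100 TPM (the share of transcripts, scaled to gene length) with vehicle and 255800 and 269300 TPM with ruxolitinib. Vehicle replicate 2 stood apart from the other libraries. Among the 7488 genes with a mean of at least 10 CPM (counts scaled to library size), 455 (6.08%) were at least 2-fold lower and 293 (3.91%) at least 2-fold higher in vehicle replicate 2 than in vehicle replicate 1, whereas ruxolitinib replicate 1 differed from vehicle replicate 1 by 2-fold in 0 of them.

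The gene lies on chromosome 14 of GRCm38.p6, from 103047012 to 103056573 on the plus strand in RefSeq. GENCODE M21 starts the transcript at 103046977 and gives it 5 exons, 2623 bases and 488 coding codons, with 2062 of the bases in the last exon. A long noncoding RNA locus, Gm41235 (103042475 to 103048740), overlaps its start. That RNA was not analysed here, and since no source states a stranded count, reads from the overlap cannot be assigned to a strand. The bases before the GENCODE start, chr14:103046762-103046976 on the plus strand from the RefSeq promoter table, are shown because the factors known to induce the gene act through DNA near its start. Capitals mark a κB-like match (GGNNNTTCC, where N is any base) and an ETS-like match (GGAAGT).
Acod1 promoter: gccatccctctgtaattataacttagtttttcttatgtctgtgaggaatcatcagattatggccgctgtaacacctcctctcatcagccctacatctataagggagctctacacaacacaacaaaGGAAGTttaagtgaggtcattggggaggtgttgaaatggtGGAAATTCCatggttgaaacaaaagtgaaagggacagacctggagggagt

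The κB-like match, GGAAATTCC at 103046927 to 103046935, reads as a match on both strands and begins 85 bases before the RefSeq start. A window of 300 bases at each start (250 before, 50 after) holds this motif on either strand in 18.5% of 32851 RefSeq promoters, and the ETS-like motif in 23.8%. A TATAAA box, found in 13.6%, begins 28 bases before the RefSeq start. The window held no GAS-like (TTCNNNGAA, 8.3% of promoters), IRF-like (GAAA repeated after a gap of 2 bases, 3.44%), AP-1-like (TGANTCA, 7.81%) or C/EBP-like (TTGCNNAA, 10.8%) match. The motifs were chosen with the sequence in view, and a match or its lack describes these letters alone.

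Acod1 was one of the more abundant transcripts of 3 libraries and a moderate one in vehicle replicate 2. It had 43356 estimated counts in vehicle replicate 1 (exact Poisson 95% interval 42949 to 43766), 4224 in vehicle replicate 2 (4098 to 4353), 43107 in ruxolitinib replicate 1 (42701 to 43516) and 41165 in ruxolitinib replicate 2 (40768 to 41565). Scaled to library size, these were 2754 and 275.5 CPM in the vehicle libraries and 2864 and 3027 in the ruxolitinib ones. The intervals cover counting error only, and they are far narrower than the gap between the vehicle libraries. In bulk libraries fewer cells of a type and less RNA per cell cannot be told apart.

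The share of all estimated counts that Acod1 took was 0.281% in vehicle replicate 1 (exact binomial 95% interval 0.279% to 0.284%) and 0.028% in vehicle replicate 2 (0.0271% to 0.0288%). It was 0.288% and 0.289% in the ruxolitinib libraries. Per length, the deposited values were 1953 and 194.8 TPM with vehicle and 2025 and 1717 TPM with ruxolitinib. By TPM, Acod1 ranked 44 and 628 among the genes of the vehicle libraries and 42 and 51 among those of the ruxolitinib libraries, counted from the most abundant.

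**Figure D1:**
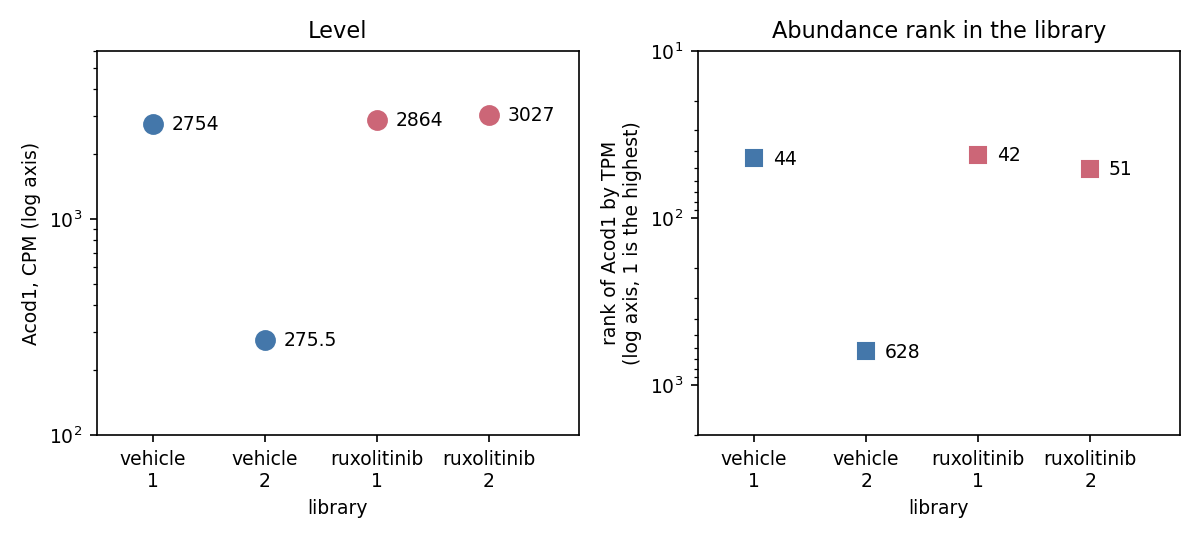
Left, Acod1 in CPM on a log axis in the 2 vehicle (blue) and 2 ruxolitinib (red) libraries, 1 point per library. Right, its abundance rank by TPM on an inverted log axis; vehicle replicate 2 is at 275.5 CPM and rank 628, and the other libraries lie between 2754 and 3027 CPM and at ranks 42 to 51.

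By its mean over the libraries, 1473 TPM, Acod1 was the gene of rank 60. Just above it were Ifitm2, an interferon-inducible membrane protein gene, at a mean of 1479 TPM, and Sh3bgrl3 at 1509 TPM. Just below was Pkm, which encodes the glycolytic pyruvate kinase, at 1436 TPM. Pkm ranged from 1327 to 1500 TPM over the libraries and Ifitm2 from 1210 to 1622 TPM, so the order of these neighbours does not exceed their spread, while Acod1 spanned 194.8 to 2025 TPM.

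Within the vehicle group, replicate 2 was below replicate 1 by a log2 difference of -3.32 (counting interval -3.37 to -3.28), a 9.99-fold lower CPM. This is the difference for which the gene was chosen. Within the ruxolitinib group, replicate 2 was above replicate 1 by 0.08 (0.06 to 0.10) in log2 CPM, but below it by 0.24 on the log2(TPM + 1) scale. The median ratio of the deposited TPM to FPKM, the other deposited measure scaled to length, was 1.46 in ruxolitinib replicate 2 and 1.71 to 1.73 in the other libraries. Ruxolitinib replicate 1 exceeded vehicle replicate 1 by 0.06 (0.04 to 0.08).

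Setting ruxolitinib beside vehicle asks what 1 h of JAK inhibition does to transcript levels. For Acod1 the group means were 1515 ± 1752 CPM with vehicle and 2945 ± 115.3 CPM with ruxolitinib (SD, n = 2 each). The mean log2 CPM was 1.76 higher with ruxolitinib, beside a pooled SD within groups of 1.66. In CPM both ruxolitinib libraries lay above both vehicle libraries, by a narrow margin over vehicle replicate 1. But the groups overlapped in estimated counts, where vehicle replicate 1, the library with the most counts, exceeded both ruxolitinib libraries. Those counts are not scaled to library size. As a share of all counts, vehicle replicate 1 (0.281%) was below both ruxolitinib libraries (0.288% and 0.289%). The groups also overlapped in TPM, where vehicle replicate 1 exceeded ruxolitinib replicate 2. In the deposited FPKM they did not overlap, at 1143 and 114 with vehicle and 1172 and 1175 with ruxolitinib.

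The size of that difference came from vehicle replicate 2. Without it the log2 difference was 0.10, and without vehicle replicate 1 it was 3.42. Leaving out a ruxolitinib library gave 1.80 (without replicate 1) and 1.72 (without replicate 2). An exact permutation test (two-sided) of 1 gene in 2 and 2 libraries cannot give a p below 0.333, and none was run.

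Among the 7488 genes with a mean of at least 10 CPM, 13 (0.174%) were at least 8-fold lower in vehicle replicate 2 than in vehicle replicate 1, and 2 (0.0267%) at least 8-fold higher. Acod1 had the fifth lowest difference of the 7488, and the highest TPM in every library of the 13. The others, named after their values were seen, were Slc7a11, Csf1, Sh2b2, Dusp16, Ralgds, Traf1, Spp1, Mreg, Fam167a, Clec4n, Dnase1l3 and Kcnh4. Csf1, the next of them per length in vehicle replicate 1, was at 251 and 29.5 TPM with vehicle and 266 and 240 TPM with ruxolitinib. Between the ruxolitinib libraries, 0 of the 7488 genes differed by 8-fold in either direction.

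The genes whose levels were most like those of Acod1 over the 4 libraries included a cytokine, signalling adaptors and an NF-κB subunit. Likeness was the Euclidean distance between log2 CPM profiles, each centred on its own mean, among 7352 genes with a mean of at least 10 CPM, predicted and clone-named genes left out; 36 of these (0.49%) lay within a distance of 1, and the median was 2.92. The 12 nearest were Csf1, Dusp16, Traf1, Ralgds, Mreg, Fam167a, Nr4a3, Dnase1l3, Sh2b2, Chka, Relb and Ggct, at distances of 0.19 to 0.55. The 4 libraries share their scaling, and the gap in vehicle replicate 2 dominates the measure: when that library was left out, 0 of the 12 remained among the 12 nearest. By Pearson correlation in place of distance, 1 of the 12 remained, and 407 genes had r of at least 0.99 with Acod1, so a correlation over 4 libraries does not single genes out.

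Csf1, which encodes macrophage colony-stimulating factor, was the nearest, at 576 and 68.3 CPM in the vehicle libraries and 613 and 694 in the ruxolitinib ones. Dusp16, a phosphatase of the JNK and p38 kinases, was at 202 and 24.8 CPM versus 218 and 242 CPM. Both were low in vehicle replicate 2 alone, like Acod1, as their choice by likeness favours. Both were slightly higher in ruxolitinib replicate 2 than in replicate 1.

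Traf1, an adaptor of tumour necrosis factor receptors, was at 80 and 7.5 CPM in the vehicle libraries and 79.3 and 69.4 in the ruxolitinib ones. Relb, the NF-κB subunit of the noncanonical pathway, was at 199 and 28.8 CPM versus 197 and 194 CPM. Nr4a3, an orphan nuclear receptor gene, was at 111 and 15.1 CPM versus 120 and 127 CPM. The low library in each was vehicle replicate 2, as the choice by likeness to Acod1 favours. The vehicle replicate 1 level was 10.7-fold (Traf1), 6.93-fold (Relb) and 7.33-fold (Nr4a3) that of vehicle replicate 2.

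Among the remainder, Ralgds, an exchange factor for Ral GTPases, had the lowest difference between the vehicle libraries (log2 -3.48), and Chka, a choline kinase gene, had the smallest (-2.59). Ggct, a cyclotransferase gene, differed most between the ruxolitinib libraries (0.58). Mreg, Fam167a, Dnase1l3 and Sh2b2 had vehicle differences of -3.43 to -3.02. The 12 lie on 9 chromosomes, and 2, Fam167a and Dnase1l3, are on the chromosome of Acod1.

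**Figure D2:**
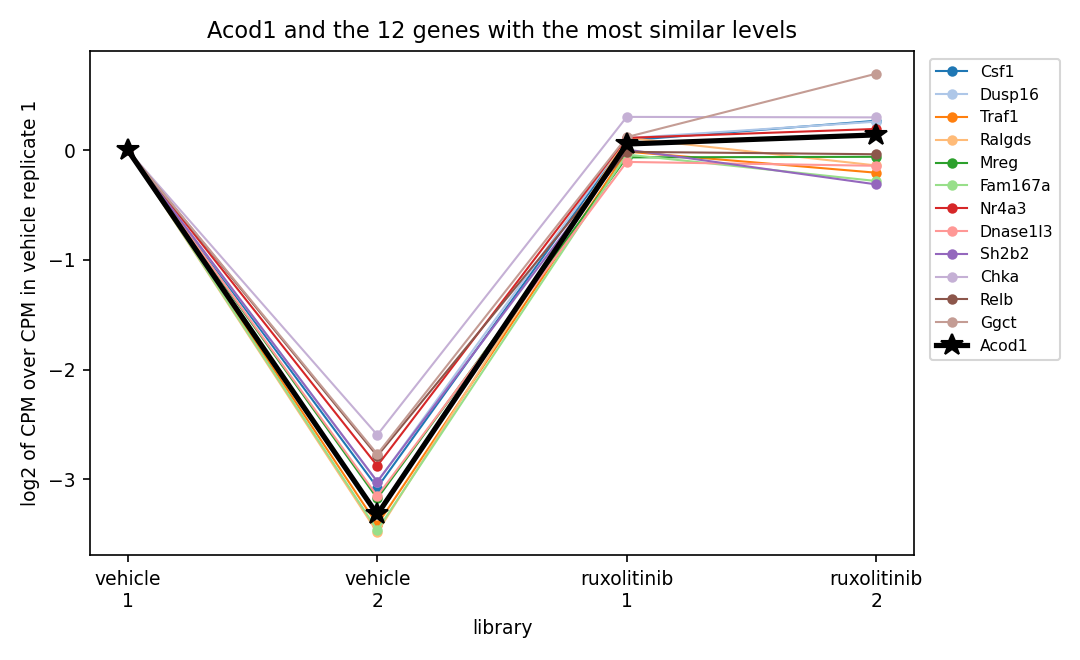
Level of Acod1 (black) and of the 12 genes nearest to it in each library, as log2 of the CPM over the CPM in vehicle replicate 1; lines join the values of 1 gene and imply no order of libraries. Each of the 12 is lowest in vehicle replicate 2, as their choice by likeness to Acod1 favours. Ggct is the one farthest from Acod1 in ruxolitinib replicate 2.

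Of these 12 genes, 9 had a promoter in the RefSeq table. The κB-like motif was in the 300-base window of 2 of the 9, Csf1 and Ralgds, beside 25.4% of the 9331 tested genes with a promoter. The ETS-like motif was in 3 of the 9 (33.7% of tested genes), the C/EBP-like in 1 (10.3%), and the GAS-like, IRF-like and AP-1-like motifs and the TATAAA box in 0. Shares this close to the background say nothing of the 12. Both κB-like matches are shown with the flanking bases for comparison with the Acod1 match above, read 5′ to 3′ on the strand of the gene, with the 9 matching bases in capitals. In both, GGNNNTTCC is matched by the opposite strand, so the capitals show its reverse complement. The Csf1 site is chr3:107760607-107760631 (minus strand) and the Ralgds site is chr2:28533261-28533285 (plus strand).
Csf1 promoter: gccttgagGGAAAGTCCctaggggc
Ralgds promoter: ttgtaactGGAATTCCCgggaagtg

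On the same chromosome, upstream of Acod1, Kctd12 ends 64375 bases away and was at 785 and 802 CPM in the vehicle libraries and 808 and 659 in the ruxolitinib ones. It was not low in vehicle replicate 2. Lmo7, farther upstream, was at 0.21 TPM or less in every library.

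The pathway around itaconate was examined for ruxolitinib against vehicle with edgeR's quasi-likelihood test over all genes. Of 11611 genes tested, 0 (0%) were called at a Benjamini-Hochberg adjusted p below 0.05, and 225 (1.94%) had an unadjusted p below 0.05; DESeq2 and limma-voom also called 0, with 232 and 188 at an unadjusted p below 0.05. The lists below, from which Acod1 was left out, therefore held 0 calls each in either direction. Counts without vehicle replicate 1, where the single vehicle library is given the spread of the ruxolitinib pair, are read against 1645 genes called of 11965 (13.7%), 853 of them higher (7.13%) and 792 lower (6.62%). Without vehicle replicate 2, 2 genes of 11821 (0.0169%) were called, 0 of them in these lists.

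Of the 17 genes that make, carry, break down or sense itaconate, 16 were measured and 14 were tested. Their median log2 fold change was 0.01, beside 0.00 over all genes tested, and 0 had an unadjusted p below 0.05. Slc25a1, the mitochondrial citrate carrier, had the smallest p of the list. It was at 13.3 and 9.33 CPM in the vehicle libraries and 13.7 and 19.6 in the ruxolitinib ones, which gave a log2 fold change of 0.56 (SE 0.34, 2 libraries per group, edgeR adjusted p of 0.975). It was 0.32 and 0.27 without replicate 2 of vehicle or of ruxolitinib, and 0.85 and 0.80 without replicate 1 of either. Rab32, a small GTPase that delivers itaconate to Salmonella-containing vacuoles in mouse macrophages, was at 152 and 114 CPM versus 160 and 151 CPM. Slc25a11, the oxoglutarate carrier, was highest in vehicle replicate 2, at 52 and 75.3 CPM versus 50.2 and 59.7 CPM.

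The enzymes that clear itaconate through its CoA ester were low. The succinate-CoA ligase subunit genes Suclg1, Sucla2 and Suclg2 lay between 3.38 and 25.8 TPM in every library, Auh, an enoyl-CoA hydratase gene, between 11.4 and 19.5 TPM, and Clybl, the citramalyl-CoA lyase gene, between 0.93 and 1.84 TPM. Abcg2, an exporter that carries itaconate, lay between 3.54 and 4.24 TPM. Sugct, a CoA transferase gene, and Slc13a3, a dicarboxylate transporter gene, were at 0.09 TPM or less and were not tested. In vehicle replicate 1 and both ruxolitinib libraries Acod1, at 1717 to 2025 TPM, exceeded the summed TPM of the 16 measured genes, 299.5 to 367.2 TPM, and in vehicle replicate 2, at 194.8 TPM, it was below their sum of 349 TPM. No member was 2-fold lower or higher in vehicle replicate 2 than in vehicle replicate 1, where 7.4% of tested genes were at least 2-fold lower and 6.1% at least 2-fold higher.

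The 21 TCA cycle genes, 4 of them shared with that list, were all tested. Their median log2 fold change was 0.02 and 11 were above 0. Citrate synthase, Cs, was at 146 and 140 CPM in the vehicle libraries and 147 and 153 in the ruxolitinib ones, and the malate dehydrogenase gene Mdh2 was at 169 and 183 CPM versus 161 and 171 CPM. Dlst, a subunit of the oxoglutarate dehydrogenase complex, was at 222 and 179 CPM versus 224 and 235 CPM, and Ogdh, another subunit, was highest in vehicle replicate 2, at 100 and 145 CPM versus 103 and 87.4 CPM. Of the 21, 0 differed by 2-fold between the vehicle libraries. Without vehicle replicate 1, 1 of the 21 passed, Dld, a subunit shared by the dehydrogenase complexes.

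The 16 genes for proteins that itaconate or its derivatives act on were all tested, with a median log2 fold change of 0.14. Nfe2l2, which encodes NRF2, was at 614 and 230 CPM in the vehicle libraries and 614 and 691 in the ruxolitinib ones, which gave a log2 fold change of 0.63 (SE 0.40, 2 libraries per group, edgeR adjusted p of 0.975) and 0.08 without vehicle replicate 2. Like Acod1 it was low in vehicle replicate 2 alone, though by less. Tmem173, which encodes the DNA-response adaptor STING, had the same order, at 46.6 and 18.7 CPM versus 47.8 and 55.6 CPM.

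The succinate dehydrogenase subunit genes encode the enzyme that itaconate inhibits. Sdha was at 71.1 and 88.2 CPM in the vehicle libraries and 69.4 and 70.1 in the ruxolitinib ones, and Sdhb at 40.1 and 34.8 CPM versus 40.1 and 46.8 CPM. Sdhc was at 24.4 and 20.4 CPM versus 25.7 and 30.2 CPM, and Sdhd at 45.7 and 34.3 CPM versus 44.4 and 58.2 CPM. Sdha was highest in vehicle replicate 2, whereas the others were lowest there and highest in ruxolitinib replicate 2. Keap1 lay between 22.4 and 29.6 CPM in all libraries, highest in vehicle replicate 2.

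Jak1, a target of ruxolitinib whose protein itaconate derivatives can also modify, was at 589 and 666 CPM in the vehicle libraries and 649 and 663 in the ruxolitinib ones, which gave a log2 fold change of 0.06 (SE 0.26, 2 libraries per group, edgeR adjusted p of 0.99). The value was -0.01 without vehicle replicate 1 and 0.15 without vehicle replicate 2. Nfkbiz, which encodes the nuclear regulator IκBζ that itaconate derivatives restrain, was highest in ruxolitinib replicate 2, at 701 and 589 CPM versus 818 and 1470 CPM, which gave a log2 fold change of 0.83 (SE 0.32, 2 libraries per group, edgeR adjusted p of 0.975). Its value was 0.34 without ruxolitinib replicate 2, 1.20 without ruxolitinib replicate 1 and 0.70 without vehicle replicate 2. Without vehicle replicate 1, 3 of the 16 passed as higher: Nfe2l2 (1.51), Nfkbiz (0.97) and Tmem173.

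Of 21 targets of NRF2, 20 were tested, with a median log2 fold change of 0.22 and 12 above 0. The ferritin heavy chain gene Fth1 was at 3430 and 1530 CPM in the vehicle libraries and 3350 and 3860 in the ruxolitinib ones, and the light chain gene Ftl1 at 1880 and 1530 CPM versus 1970 and 2640 CPM. Gsr, glutathione reductase, was at 1150 and 1110 CPM versus 1130 and 1130 CPM, and the pentose phosphate genes Tkt and Pgd were highest in vehicle replicate 2, at 1420 and 976 CPM there. In vehicle replicate 2 against vehicle replicate 1, 4 of 20 were at least 2-fold lower (7.4% of tested genes), and these 4, Fth1, Sqstm1, Slc7a11 and Srxn1, were also the 4 that passed as higher without vehicle replicate 1. Slc7a11, the cystine importer gene, was at 918 and 115 CPM versus 940 and 500 CPM, so it was also lower in ruxolitinib replicate 2 than in replicate 1, unlike Acod1. The median of these genes was 0.06 when vehicle replicate 2 or ruxolitinib replicate 1 was left out, and 0.00 when ruxolitinib replicate 2 was.

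The 31 genes of the receptors, adaptors, kinases and factors known to induce Acod1 were all tested, with a median log2 fold change of 0.05 and 16 above 0. Among the receptors, Tlr2, for bacterial lipoproteins, was at 737 and 347 CPM in the vehicle libraries and 745 and 814 in the ruxolitinib ones. Cd14, the co-receptor for lipopolysaccharide, was at 602 and 147 CPM versus 566 and 548 CPM. Tnfrsf1a, the main receptor for tumour necrosis factor, was at 376 and 276 CPM versus 412 and 386 CPM. All of these were lowest in vehicle replicate 2.

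Among the factors, Nfkb2, the partner of RELB, was at 432 and 86.5 CPM in the vehicle libraries and 452 and 365 in the ruxolitinib ones. Rel, an NF-κB subunit gene, was at 168 and 98.1 CPM versus 195 and 259 CPM, which gave a log2 fold change of 0.77 (SE 0.33, 2 libraries per group, edgeR adjusted p of 0.975) and 0.42 without vehicle replicate 2. Cebpb, a C/EBP factor gene, was at 292 and 321 CPM versus 283 and 317 CPM and did not share the low level. In vehicle replicate 2 against vehicle replicate 1, 7 of the 31 were at least 2-fold lower and 3 at least 2-fold higher, beside 7.4% and 6.1% of all tested genes. Without vehicle replicate 1, 8 of the 31 passed as higher and 3 as lower, Rel among the higher (1.22).

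The NF-κB-dependent inflammatory genes are those usually induced beside Acod1, and in these libraries they did not all share its pattern. Of 38 genes, 35 were tested. Their median log2 fold change was 0.43, with 28 above 0, beside 0.00 and 49.4% above 0 over all genes tested. The median was 0.16 without vehicle replicate 2 and 0.97 without vehicle replicate 1, where 18 passed as higher and 3 as lower. Between the vehicle libraries their median difference was -0.83 (replicate 2 minus replicate 1; -0.01 over all genes), with 15 of 35 at least 2-fold lower (7.4% of tested genes) and 3 at least 2-fold higher (6.1%).

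Of the 10 members with the highest CPM, several were low in vehicle replicate 2 as Acod1 was, but by less. Hdc, which encodes the enzyme that makes histamine, was at 1980 and 1040 CPM in the vehicle libraries and 1900 and 1590 in the ruxolitinib ones. Marcksl1 was at 769 and 300 CPM versus 743 and 953 CPM, and Il1rn, the interleukin 1 receptor antagonist gene, at 591 and 227 CPM versus 547 and 463 CPM. Tnfaip2, Clec4e and Plaur were also lowest there, by log2 differences of -1.19, -0.81 and -0.26 from vehicle replicate 1.

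Others of the same 10 were high in vehicle replicate 2, where Acod1 was low. Il1b, which encodes interleukin 1β, was at 925 and 1520 CPM in the vehicle libraries and 962 and 1600 in the ruxolitinib ones. Nfkbia, the gene of the NF-κB inhibitor IκBα, was at 637 and 1250 CPM versus 649 and 1250 CPM, and Tnfaip3, the gene of the feedback inhibitor A20, at 323 and 637 CPM versus 370 and 635 CPM. In these 3 genes replicate 2 was above replicate 1 in both groups, by log2 differences of 0.72 to 0.98 with vehicle and 0.73 to 0.94 with ruxolitinib, whereas Acod1 differed by -3.32 and 0.08.

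**Figure D3:**
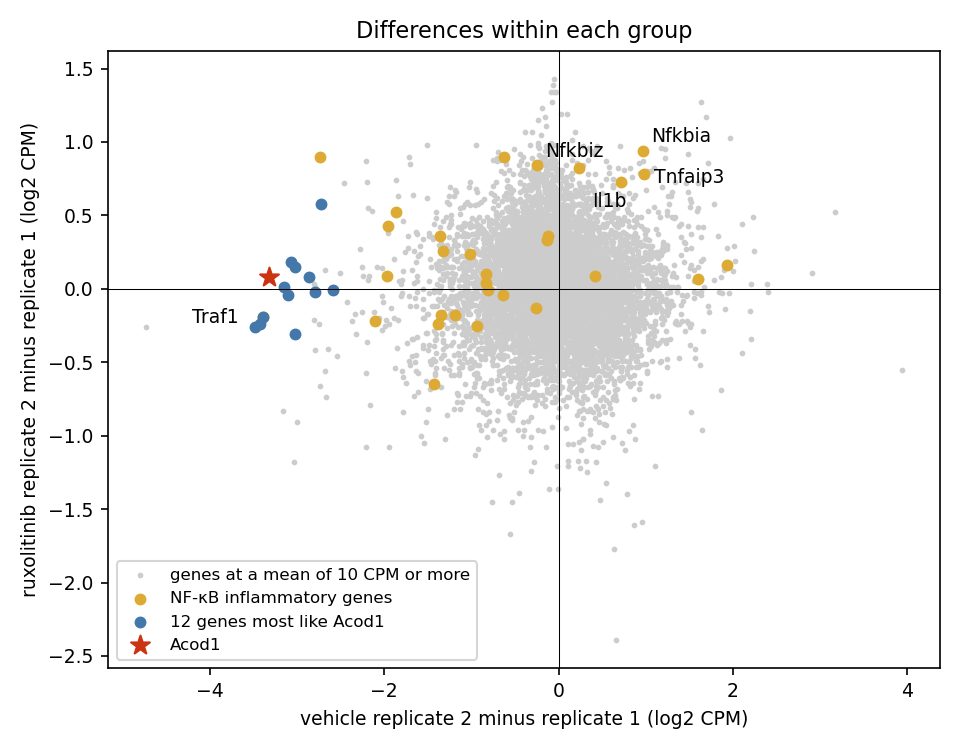
Each point is a gene with a mean of about 10 CPM or more; the x axis is vehicle replicate 2 minus replicate 1 and the y axis ruxolitinib replicate 2 minus replicate 1, both in log2 CPM. Acod1 (star) and the 12 genes most like it (blue) sit on the left near 0 on the y axis, while the NF-κB inflammatory genes (orange) spread from Traf1 on the left, which is in both sets, to the right side, where Nfkbia and Tnfaip3 are.

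Other cells of the marrow that express Acod1 include monocytes and macrophages. All 21 monocyte and macrophage markers were measured and none was at 0 in all libraries. Their summed level was 2401 and 2435 TPM with vehicle and 2283 and 2369 TPM with ruxolitinib, so the sum was not lower in vehicle replicate 2. Of the 19 tested, 5 were below their vehicle replicate 1 level in vehicle replicate 2, and the median difference was 0.73, opposite in sign to that of Acod1.

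Ly6c2, a surface marker of monocytes, was at 769 and 782 CPM in the vehicle libraries and 730 and 993 in the ruxolitinib ones. Csf1r, the receptor for macrophage colony-stimulating factor, was at 144 and 137 CPM versus 162 and 147 CPM. Irf8, an interferon regulatory factor gene, was at 127 and 107 CPM versus 123 and 145 CPM. They differed between the vehicle libraries by 0.03, -0.08 and -0.24 in log2 CPM, where Acod1 differed by -3.32. Ly6c2, at 1900 and 1930 TPM with vehicle, made up most of the summed level. Of the 19 markers tested, 1 was at least 2-fold lower in vehicle replicate 2 than in vehicle replicate 1 (7.4% of tested genes). In the same comparison 5 were at least 2-fold higher (6.1%).

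The neutrophil markers, 20 of 20 measured, had a median difference of 0.17 between the vehicle libraries, and Ngp, a neutrophil granule protein gene, was at 30800 and 30700 CPM there. Immediate early genes, which respond to handling or stimulation within minutes, differed in both directions between the vehicle libraries: their summed level was 3906 and 9555 TPM with vehicle and 3744 and 3424 TPM with ruxolitinib, and 10 of 22 were at least 2-fold higher in vehicle replicate 2 than in vehicle replicate 1 (6.1% of tested genes). In the same comparison 5 of the 22 were lower, 1 of them, Egr3 (140 and 59.4 CPM), by at least 2-fold (7.4% of tested genes). The transcripts with the highest TPM in vehicle replicate 2 were Zfp36 (838 and 2610 TPM in the vehicle libraries), Junb (417 and 1480 TPM) and Fos (70.3 and 1080 TPM). They were named after their values were seen, by their level in that library. By mean CPM the first 3 of the list were Zfp36, Junb and Klf6, and Klf6 was at 530 and 661 CPM with vehicle. The part of the immediate early genes in the low level of Acod1 was not tested. Eosinophil, basophil and mast cell markers, 15 of 15 measured, summed to 2298 and 3595 TPM with vehicle and 2553 and 772 TPM with ruxolitinib, and erythroid markers, 12 of 12, to 33920 and 32650 TPM against 33520 and 68270 TPM, so that both set ruxolitinib replicate 2 apart, a library in which Acod1 was not.

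Markers of dendritic cells, 11 of 12 measured, summed to 4718 and 3591 TPM with vehicle and 4431 and 6119 TPM with ruxolitinib. B lineage markers, 12 of 13, summed to 1472 and 1621 TPM against 1421 and 2057 TPM, and T and natural killer cell markers, 11 of 13, to 44.1 and 54.57 TPM against 45.59 and 54.35 TPM. No measured marker of these lists was at 0 in every library, and the dendritic sum was the only one of the 3 that was lowest in vehicle replicate 2. Most of that sum was Cd74 (3700 and 2940 TPM with vehicle) and H2-Ab1 (940 and 594 TPM). Of the 10 dendritic markers tested, 3 were at least 2-fold lower in vehicle replicate 2 than in vehicle replicate 1 (7.4% of tested genes). In the same comparison 2 were at least 2-fold higher (6.1%).

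**Figure D4:**
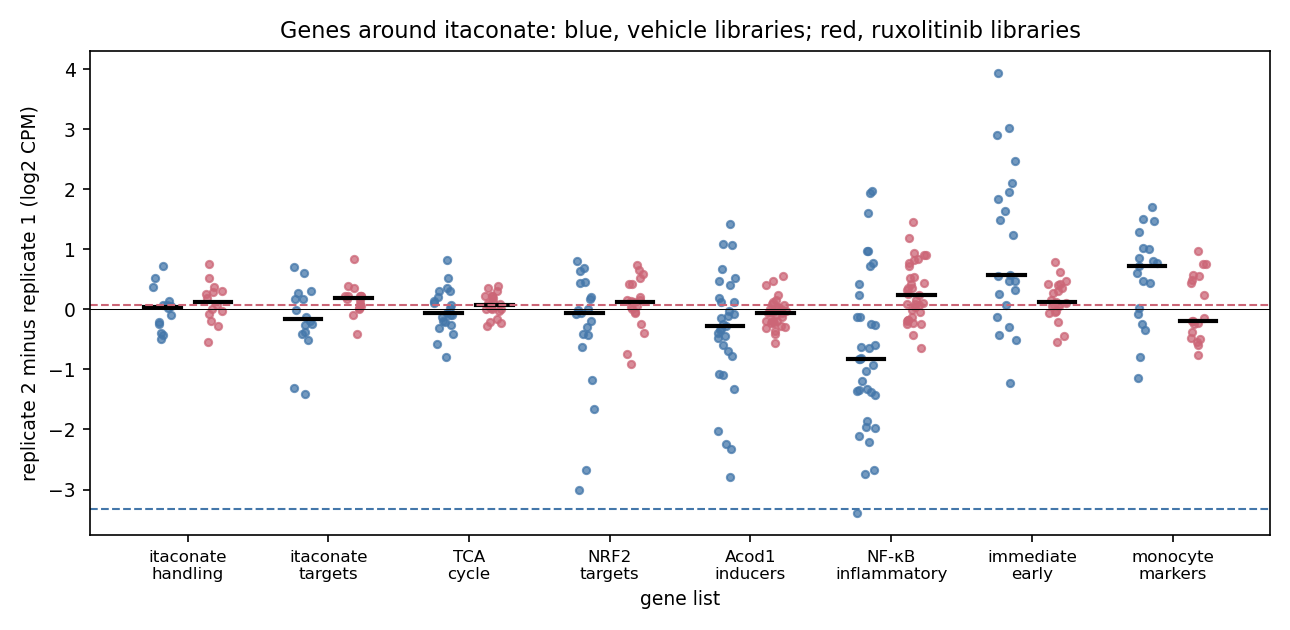
For each gene list, the log2 CPM difference of replicate 2 minus replicate 1 for every tested member, in the vehicle (blue) and ruxolitinib (red) libraries, with black bars at the medians; dashed lines mark Acod1 at -3.32 (vehicle) and 0.08 (ruxolitinib). The vehicle medians are 0.04 for itaconate handling and -0.06 for the TCA cycle. Members of these lists range from -0.50 to 0.72 and from -0.79 to 0.82 with vehicle. The NF-κB list has a vehicle median of -0.83, and the medians of the immediate early genes (0.57) and monocyte markers (0.73) lie above 0.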

How the data were processed

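The submitters' processing notes name GRCm38.p6 as the build, and RSEM, Bowtie2 and DESeq2 as tools; their versions and the annotation are not given in the sources used here. The authors deposited, per the file headers, estimated counts with TPM and FPKM for 16566 genes in each library; 16466 of them were found by identifier in RefSeq's table for that build.

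Estimated counts were rounded to whole numbers and analysed in R 4.3.3 with edgeR 4.0.16 (filterByExpr, TMM scaling, quasi-likelihood test of group, no covariate, Benjamini-Hochberg adjustment over the 11611 genes kept); limma 3.58.1 and DESeq2 1.42.0 served as alternatives. The log2 CPM values use a prior count of 2. TPM and FPKM were used for levels and ranks, not for tests. The procedures were tested on simulated data. Totals of 14235511 to 15419579 counts set the counting error.

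Acod1 and the gene lists were chosen with earlier results of these data known. Genes named are those most like Acod1, its neighbours on the chromosome and in abundance, members of the itaconate lists, and the members of the other lists with the highest CPM; others are said to be chosen after their values were seen or are counted calls. Predicted genes, pseudogenes and clone-named genes were not candidates for likeness. The replicate numbers come from titles alone. Some genes that this rule names are not reported here.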

Additional observations from a re-analysis of the deposited data

How the results depend on the processing

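The log2 difference of Acod1 between ruxolitinib and vehicle was 1.59 to 1.76 with RLE scaling, total counts, a prior count of 0.5, the deposited TPM and a replicate block, and 0.10 to 3.42 with each library left out. The difference between the vehicle libraries was -3.33 to -3.32 on every scale. Between the ruxolitinib libraries it was 0.00 with total counts and -0.24 with TPM. By CPM in place of TPM, Acod1 ranked 20 and 669 in vehicle replicates 1 and 2, and 22 and 23 in ruxolitinib replicates 1 and 2. Of the 12 genes most like Acod1, 1 remained by Pearson correlation and 0 to 11 with each library left out, and 8 to 12 in the other settings run.

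RLE scaling, total counts, both other filters, DESeq2 and limma-voom called 0 genes. With replicate number as a block 16 were called (9 higher, 7 lower); the difference of replicate 2 minus replicate 1 in vehicle correlated at 0.04 across genes with that in ruxolitinib, so nothing shows that the numbers pair samples. With each library left out, 2 to 1645 were called. With each library left out, list medians ranged from -0.01 to 0.06 (itaconate handling), 0.07 to 0.26 (itaconate targets), 0.00 to 0.09 (TCA cycle), 0.00 to 0.39 (NRF2 targets), -0.04 to 0.15 (inducers) and 0.16 to 0.97 (NF-κB inflammatory genes). With total counts the itaconate handling and TCA cycle medians were -0.04 each, where the median of all genes was -0.06, and with genes of 1 count kept the itaconate handling median was -0.05. Jak1 was at -0.01 without vehicle replicate 1. The cause of these shifts was not tested. The depth left little counting error for Acod1, and the spread between libraries set the precision.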
